A study of Mus musculus with 25 samples.

Results

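The genes Susd2, Vat1, Cygb, Gpr83, Cd200 and Ankrd63 were followed in the brain cortex of 5 groups of mice. They were selected on a higher level in mice given vestitol and salviolone together than in mice of the same Alzheimer model given vehicle, with little spread between mice, and are 6 of the 21720 genes in the count table. All 6 were among the 16515 genes kept for testing.

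Each of the 5 groups held 5 male mice, drawn at random from 8, aged 6 months and injected intraperitoneally every day for 3 months. The combination group received (-)-vestitol, a plant isoflavan, at 2.5 mg/kg and salviolone, a diterpenoid, at 2.5 mg/kg. The vestitol group received vestitol alone at 5 mg/kg, the salviolone group salviolone alone at 5 mg/kg, and the model control group vehicle. These 4 groups carried the APPswe and PSEN1dE9 transgenes on the B6C3 strain, so all of them share the amyloid model. The wild type group was C57BL/6J on vehicle and differed from the treated groups in strain, transgenes and compound at once, and these cannot be told apart. Messenger RNA of the cortex was sequenced to 59376320 to 109776852 counts per library. App, which encodes the precursor of amyloid and is carried by the transgene, was at 3439 to 5066 CPM (counts scaled to library size, with TMM factors) in the 20 transgenic mice, against 1383 to 1800 CPM in the 5 wild type mice, as the labels have it.

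The 6 genes belong to no single pathway. Susd2 encodes a sushi domain protein of the cell membrane that takes part in neurite growth and excitatory synapse formation in rodent neurons. Vat1 encodes a membrane-associated enzyme of the medium-chain reductase family, first described on cholinergic vesicles of the electric ray. Cygb encodes cytoglobin, a globin that binds oxygen and removes nitric oxide. Gpr83 encodes a receptor for the peptide PEN, which is cut from the precursor proSAAS; in rodents the receptor is found in hypothalamus and striatum, among other regions. Cd200 encodes a membrane glycoprotein of neurons that acts on the receptor CD200R1 of microglia, and Ankrd63 encodes an ankyrin repeat protein. Their levels were set beside markers of the ventral forebrain, the hypothalamus, basal forebrain and striatum that lie below the cortex.

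Promoter sequence from RefSeq (GRCm38.p6) was at hand for 4 of the 6 genes. It is shown so that a reader can see whether the start regions of these 4 genes share short elements. Their shared rise with the combination is how they were chosen. Each run gives the 250 bases before the transcript start, 5′ to 3′ on the gene's strand. Capitals mark the GC box GGGCGG, the TATA-type sequence TATAAA and the core TGACG of a cyclic AMP response element, searched on either strand, and no 2 of the marked elements overlap. The windows were chr11:101466200-101466449 on the minus strand for Vat1, chr9:14859960-14860209 on the plus strand for Gpr83, chr16:45409054-45409303 on the minus strand for Cd200 and chr2:118703964-118704213 on the minus strand for Ankrd63.
Vat1: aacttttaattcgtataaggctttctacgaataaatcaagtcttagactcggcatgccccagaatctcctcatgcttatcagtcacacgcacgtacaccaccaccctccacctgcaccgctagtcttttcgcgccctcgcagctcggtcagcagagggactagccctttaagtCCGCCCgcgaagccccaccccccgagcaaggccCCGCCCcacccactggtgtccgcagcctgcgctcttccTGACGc
Gpr83: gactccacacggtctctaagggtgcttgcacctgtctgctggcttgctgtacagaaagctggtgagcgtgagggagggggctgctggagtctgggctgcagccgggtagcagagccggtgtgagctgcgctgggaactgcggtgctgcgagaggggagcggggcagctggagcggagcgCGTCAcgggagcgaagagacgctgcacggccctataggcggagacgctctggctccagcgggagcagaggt
Cd200: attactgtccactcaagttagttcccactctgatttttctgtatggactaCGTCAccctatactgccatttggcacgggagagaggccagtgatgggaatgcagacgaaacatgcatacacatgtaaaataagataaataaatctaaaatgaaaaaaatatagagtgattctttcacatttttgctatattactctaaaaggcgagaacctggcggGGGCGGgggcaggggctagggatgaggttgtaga
Ankrd63: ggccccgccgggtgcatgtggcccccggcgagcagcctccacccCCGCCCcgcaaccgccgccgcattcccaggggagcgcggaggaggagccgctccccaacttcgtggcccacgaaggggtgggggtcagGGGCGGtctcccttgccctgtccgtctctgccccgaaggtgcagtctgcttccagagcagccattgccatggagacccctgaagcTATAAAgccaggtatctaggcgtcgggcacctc
No element was present in all 4 windows. The TGACG core was found in Vat1, Gpr83 and Cd200, and in 17.8% of 32851 windows of the same length. A GC box was found in Vat1 (2 matches), Cd200 (1 match) and Ankrd63 (2 matches), against 32.7% of all windows. The sequence TATAAA was found in Ankrd63, with its first base 33 bases before the start, and in 12.4% of all windows. The G and C content was 58.4% for Vat1, 66.8% for Gpr83, 42.4% for Cd200 and 70% for Ankrd63. A match is a string of letters and says nothing of a factor's binding.

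In the combination group, each of the 6 genes was higher than in model controls, by 0.50 to 0.98 on the log2 scale. That contrast chose the genes, so its values are a description and carry no test. Every combination mouse lay above every model control mouse for all 6 genes, as it did for 7.05% of all genes tested. Of all genes, 7.83% were called higher and 7.13% lower in the combination than in the model control (edgeR's quasi-likelihood test, adjusted p under 0.05).

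Susd2, at chr10:75472540-75479825 (mm39, as are the gene positions that follow), had rank 1 when raised genes were ordered by p. It measured 24.67, 24.96, 24.55, 25.92 and 26.34 CPM in combination mice, against 14.14, 12.07, 14.27, 12.04 and 11.94 CPM in model controls. The combination mice lay close together and clear of every control. The difference was 0.97 ± 0.11 (log2, SE), or 1.96-fold.

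Vat1, at chr11:101349571-101357056, had rank 2. It measured 74.1, 84.06, 68.02, 98.15 and 93.55 CPM in combination mice, against 51.82, 40.09, 40.92, 39.77 and 38.8 CPM in model controls. Control mouse 1 was the highest of its group, and combination mouse 3 the lowest of its own, and the groups did not overlap. The difference was 0.98 ± 0.12, or 1.98-fold.

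Cygb, at chr11:116536421-116545139, had rank 7 in that order. It measured 63.06, 60.91, 63.92, 68.67 and 69.86 CPM in combination mice, against 49.76, 38.94, 49.46, 38.82 and 41.45 CPM in model controls. Controls 1 and 3 stood above the other three controls and still below every combination mouse. The difference was 0.58 ± 0.08, or 1.49-fold. The gene overlaps Prcd, which averaged 2.1 CPM, and reads of the overlap cannot be assigned without strand, whose use in counting is not stated.

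Gpr83, at chr9:14771506-14782085, had rank 8. It measured 68.32, 65.17, 51.99, 69.2 and 63.66 CPM in combination mice, against 43.56, 37.59, 37.79, 35.56 and 34.41 CPM in model controls. Combination mouse 3 was low for its group, and control mouse 1 high. The difference was 0.75 ± 0.10, or 1.69-fold.

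Cd200, at chr16:45202498-45229416, stood at rank 43. It measured 100.1, 101.6, 94.51, 107 and 101.4 CPM in combination mice, against 81.17, 67.33, 72.14, 69.63 and 65.43 CPM in model controls. Control mouse 1 was again the highest control. The difference was 0.50 ± 0.08, or 1.42-fold, the smallest of the 6.

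Ankrd63, at chr2:118529584-118534444, stood at rank 105. It measured 81.15, 70.64, 65.82, 93.53 and 79.95 CPM in combination mice, against 53.16, 45.38, 56.99, 45.26 and 38.91 CPM in model controls. The lowest combination mouse, mouse 3, was above the highest control, mouse 3 of that group. The difference was 0.71 ± 0.12, or 1.63-fold.

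**Figure D1:**
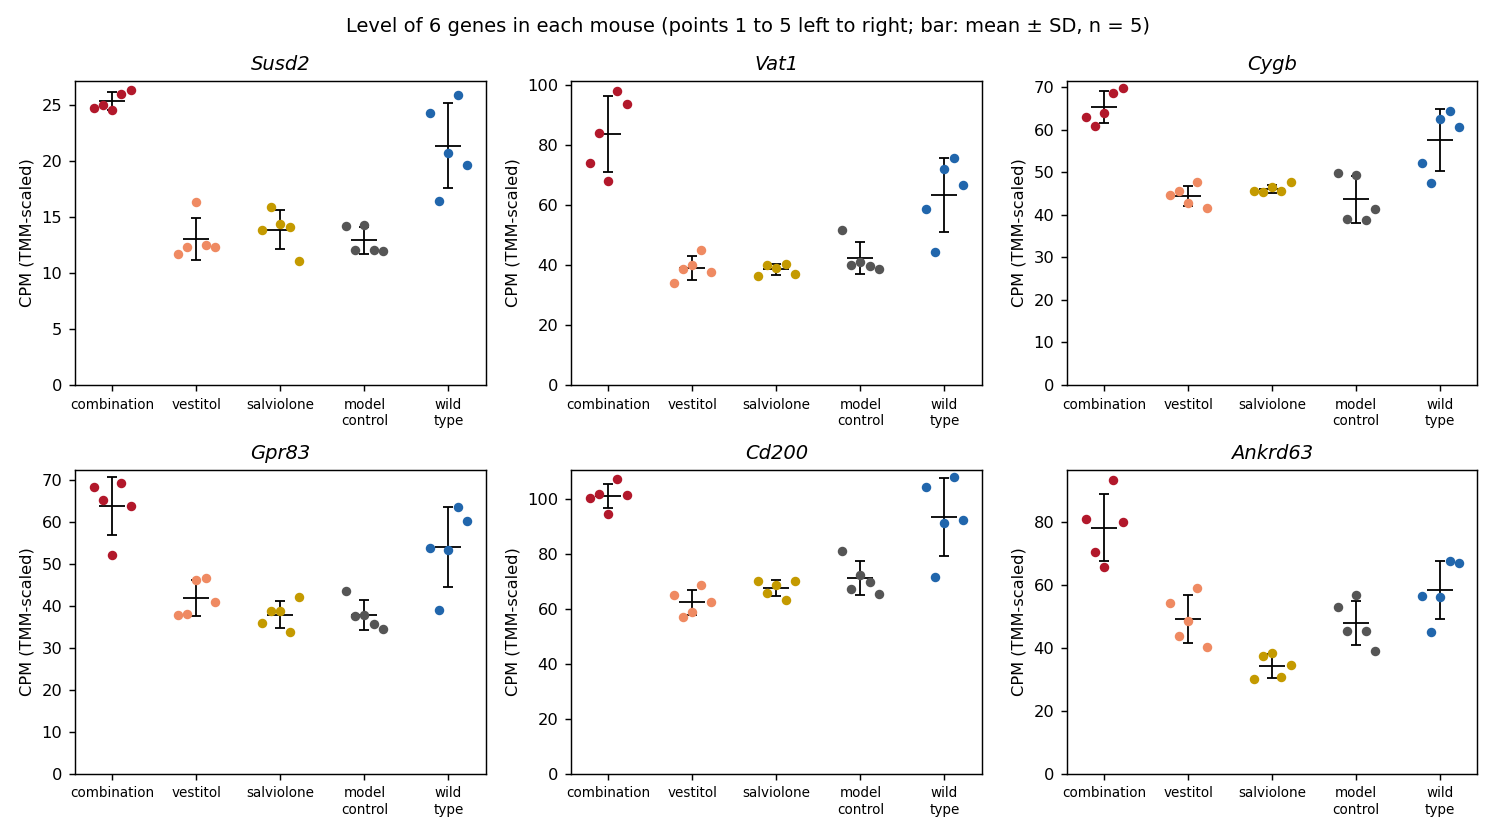
Level of each gene in CPM (TMM-scaled, y axis from 0) in every mouse, by group; points run from mouse 1 to mouse 5 and bars give the mean ± SD (n = 5). The combination mice lie above all vestitol, salviolone and model control mice in each panel, and wild type mouse 2 is the lowest wild type mouse throughout.

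Spread within groups separated the genes less than their order would have it. Over all 25 mice the within-group SD was 0.13 log2 units for Cygb, 0.13 for Cd200, 0.18 for Gpr83, 0.18 for Susd2, 0.20 for Vat1 and 0.21 for Ankrd63. The median of all genes tested was 0.19, so Vat1 and Ankrd63 varied slightly more than a typical gene. In combination mice alone the coefficient of variation was 3.15% for Susd2 and 15.2% for Vat1. Ranks 3 to 6 of the order were held by Ache, Bex1, Maged1 and Slc32a1, which are not among the 6. The raised genes just past Ankrd63 were Sv2c (0.56 ± 0.10), Hcn3 (0.60 ± 0.11), Pgrmc1 (0.63 ± 0.11) and Epha5 (0.49 ± 0.09), at ranks 106 to 109. The differences of Sv2c, Hcn3 and Pgrmc1 lie within the range of the 6, and that of Epha5 just below the value of Cd200.

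Expressed per gene length as FPKM, mean levels in combination mice were highest for Cd200 (81.6), followed by Vat1 (29.7), Cygb (29.3), Susd2 (22.1), Ankrd63 (17.4) and Gpr83 (14.8). Vat1 and Cygb ranged from 24.06 to 35.16 and 27.03 to 31.42 FPKM and were not separated. In wild type mice the order began with the same Cd200 (75.5), Cygb (25.8) and Vat1 (22.5).

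Given alone, neither compound was accompanied by the levels seen with the combination. The 5 combination mice lay above all 15 mice of the vestitol, salviolone and model control groups for each of the 6 genes. This held for 3.98% of all genes tested, and the choice of genes fixes part of it. Susd2 averaged 25.3 ± 0.797 CPM with the combination, 13.0 ± 1.87 CPM with vestitol, 13.9 ± 1.74 CPM with salviolone and 12.9 ± 1.20 CPM in model controls (SD, n = 5 each). The vestitol, salviolone and control mice of Susd2 ran through each other. Cd200 averaged 101 ± 4.45 CPM with the combination, 62.3 ± 4.62 CPM with vestitol, 67.6 ± 2.96 CPM with salviolone and 71.1 ± 6.15 CPM in model controls. With vestitol, 4 of 5 mice had less Cd200 than every model control. Vestitol against the model control, which shares the controls with the contrast that chose the genes, differed by -0.19 ± 0.08 for Cd200, and by -0.11 ± 0.12 for Vat1 to 0.15 ± 0.10 for Gpr83 in the other five genes. Salviolone against the same controls differed by -0.48 ± 0.12 for Ankrd63, with 5 of 5 salviolone mice below every model control, and by -0.13 ± 0.12 for Vat1 to 0.10 ± 0.11 for Susd2 in the other five genes. The share of all genes whose mice on a single compound lay below every model control was not counted. The compounds were given at 5 mg/kg alone and 2.5 mg/kg each together, so dose and pairing differ at the same time.

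Wild type mice stood next below the combination in the mean level of each gene. Combination and wild type ranges overlapped for all 6 genes. Their differences were 0.24 ± 0.11 for Susd2, 0.40 ± 0.12 for Vat1, 0.18 ± 0.08 for Cygb, 0.24 ± 0.10 for Gpr83, 0.11 ± 0.08 for Cd200 and 0.42 ± 0.12 for Ankrd63. The model control was lower than wild type by a log2 difference of -0.73 ± 0.11 for Susd2, -0.59 ± 0.12 for Vat1, -0.40 ± 0.08 for Cygb, -0.52 ± 0.10 for Gpr83, -0.39 ± 0.08 for Cd200 and -0.29 ± 0.12 for Ankrd63. These comparisons share mice with the contrast that chose the genes and were not tested.

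Mice that took no part in that contrast allowed tests. Against wild type, strain, transgenes and compound differ together, and model controls on vehicle were also lower than wild type. Compared with wild type, vestitol mice had lower levels of 5 of the 6 genes, where 8.49% of all genes tested were lower (6.95% were higher). Cd200 measured 64.86, 57.08, 58.69, 68.51 and 62.34 CPM in vestitol mice, against 104.1, 71.58, 91.34, 108 and 92.12 CPM in wild type mice. The groups did not overlap, a trait not counted over all genes, with wild type mouse 2 the nearest to the vestitol mice. The difference was -0.58 ± 0.08, with an adjusted p of 4.68e-05 (quasi-likelihood test of edgeR, two-sided, adjusted by Benjamini-Hochberg over all genes tested, as for all adjusted edgeR p-values here).

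Susd2 measured 11.66, 12.32, 16.31, 12.46 and 12.28 CPM in vestitol mice, against 24.26, 16.39, 20.66, 25.84 and 19.61 CPM in wild type mice. Vestitol mouse 3 and wild type mouse 2 nearly met. The difference was -0.72 ± 0.11 (edgeR, adjusted p = 0.000186). Vat1 measured 34.15, 38.77, 39.9, 45.18 and 37.58 CPM in vestitol mice, against 58.57, 44.39, 72, 75.62 and 66.53 CPM in wild type mice. Here vestitol mouse 4 lay just above wild type mouse 2, and the other vestitol mice lay below every wild type mouse. The difference was -0.70 ± 0.12 (edgeR, adjusted p = 0.000375).

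Cygb was lower by 0.37 on the log2 scale (SE 0.08, edgeR, adjusted p = 0.0021). Of its 5 vestitol mice, 4 lay below every wild type mouse. Gpr83 was lower by 0.37 (SE 0.10, edgeR, adjusted p = 0.0168), with 2 of 5 below every wild type mouse. The call for Gpr83 was lost without wild type mouse 4 (edgeR, adjusted p = 0.0708) or without wild type mouse 5 (edgeR, adjusted p = 0.0515). Ankrd63 measured 54.39, 43.88, 48.64, 58.99 and 40.16 CPM in vestitol mice, against 56.52, 45.24, 56.29, 67.78 and 66.9 CPM in wild type mice. These 2 groups overlapped widely, and the difference of -0.25 ± 0.12 did not pass (edgeR, adjusted p = 0.181, with a 95% interval from -0.50 to 0.003).

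In salviolone mice all 6 genes were lower than in wild type, against 9.45% of all genes tested (8.32% were higher). Ankrd63 measured 30.11, 37.46, 38.38, 30.88 and 34.71 CPM in salviolone mice, against the wild type values above. Every salviolone mouse was below every wild type mouse. The difference of -0.77 ± 0.12 was the largest of the 6 (edgeR, adjusted p = 0.000182).

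Vat1 measured 36.22, 39.98, 39.06, 40.36 and 36.97 CPM in salviolone mice, a difference of -0.72 ± 0.12 from wild type (edgeR, adjusted p = 0.000202). Susd2 measured 13.85, 15.9, 14.39, 14.05 and 11.09 CPM, a difference of -0.62 ± 0.11 (edgeR, adjusted p = 0.000397). Cd200 measured 70.19, 65.81, 68.8, 63.33 and 69.91 CPM, a difference of -0.47 ± 0.08 (edgeR, adjusted p = 0.000265). For Vat1, Susd2 and Cd200 the salviolone mice also lay below every wild type mouse. The share of all genes set apart from wild type in this way was not counted. Gpr83 was lower by 0.51 (SE 0.10, edgeR, adjusted p = 0.00123) and Cygb by 0.32 (SE 0.08, edgeR, adjusted p = 0.006). In Gpr83 and Cygb, 4 of 5 salviolone mice were below every wild type mouse, and wild type mouse 2 reached into the salviolone range. The comparisons of vestitol and of salviolone with wild type share the wild type mice.

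**Figure D2:**
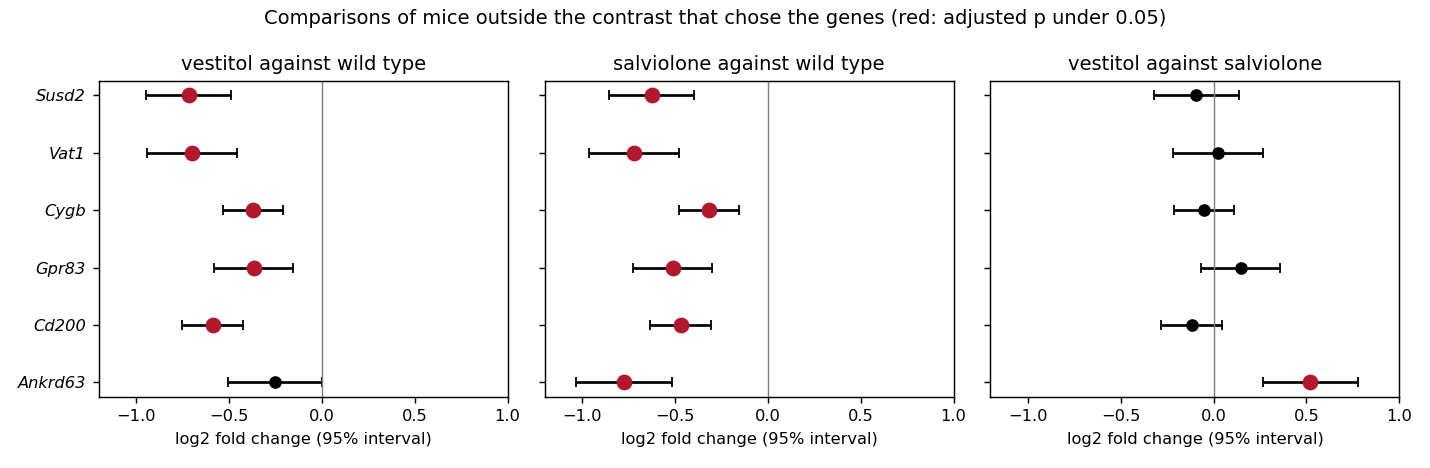
Log2 fold change (x axis) with its 95% interval for each gene in the 3 comparisons of mice outside the contrast that chose the genes; red points have an adjusted p under 0.05. Mice given either compound have values below 0 against wild type, from which they also differ in strain and transgenes. Between the compounds the interval of Ankrd63, at 0.52, is the one that does not span 0.

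Between the compounds at the matched dose of 5 mg/kg, Ankrd63 was higher with vestitol than with salviolone. Its lowest vestitol mouse, at 40.16 CPM, was above its highest salviolone mouse, at 38.38 CPM. The difference was 0.52 ± 0.12, or 1.43-fold (edgeR, adjusted p = 0.0479), where 0.684% of all genes tested were called in either direction. That call lay at the threshold: the adjusted p ran from 0.00565 (DESeq2) to 0.542 over the alternatives, while the difference stayed above 0. Without vestitol mouse 1, 2, 3 or 4, or salviolone mouse 1, 3, 4 or 5, the call was lost. It was also lost with only the 15 vestitol, salviolone and wild type mice in the fit (edgeR, adjusted p = 0.0861). How many of all genes lay apart between the compounds, as Ankrd63 did, was not counted.

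The other five genes did not pass between the compounds. Their 95% intervals for vestitol minus salviolone ran from -0.32 to 0.14 for Susd2, -0.22 to 0.26 for Vat1, -0.22 to 0.11 for Cygb, -0.07 to 0.36 for Gpr83 and -0.28 to 0.05 for Cd200. Gpr83 was above the salviolone mean in 5 of 5 vestitol mice (edgeR, adjusted p = 0.642). These intervals allow differences of up to about that size and do not show that the compounds act alike.

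Marker scores of hypothalamus and basal forebrain, of striatum and of hippocampus were higher in every combination mouse than in every model control, as were the 6 genes. In bulk tissue, fewer cells of a type and less RNA per cell cannot be told apart. The glutamate transporter gene Slc17a7, a marker of cortical excitatory neurons, was present in every library, at 855 to 1410 CPM. A score was taken as the mean log2 CPM of 19 genes of hypothalamus and basal forebrain. It ranged from 1.83 to 3.64 in combination mice, -1.52 to 0.02 in vestitol mice, -0.90 to -0.06 in salviolone mice, -0.96 to 1.35 in model controls and -0.90 to 2.66 in wild type mice. The combination mice thus did not overlap with the model controls in this score. Of its 19 genes, 15 were called higher in the combination than in the model control, and the other four were not called (edgeR). Wild type mouse 2 was at -0.90, while the other 4 wild type mice were at 1.21 to 2.66.

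Summed over the list, these markers came to 482 to 825 CPM in combination mice, 88 to 166 CPM in vestitol mice, 95 to 107 CPM in salviolone mice, 89.4 to 312 CPM in model controls and 121 to 730 CPM in wild type mice. Otp, a transcription factor of hypothalamic neurons, was at 1.81 to 5.62 CPM in combination mice, 0 to 0.117 CPM in vestitol mice, 0 to 0.243 CPM in salviolone mice, 0 to 1.21 CPM in model controls and 0.175 to 2.57 CPM in wild type mice. Sim1, another such factor, had a median of 1.66 CPM in combination mice and of 0 CPM in vestitol, salviolone and model control mice. Hap1, abundant in hypothalamus, was at 172 to 235 CPM in combination mice, against 44.5 to 121 CPM in model controls. Pomc, a low gene of the same list, had a median of 0.459 CPM in combination mice and 0.556 CPM in model controls. The cortex projection neuron score went the other way, at 5.94 to 6.22 in combination mice, against 6.29 to 6.60 in model controls. Of its 15 genes, 7 were called lower and 1 higher. The striatum score was at 5.94 to 6.56 in combination mice, against 5.18 to 5.70 in model controls. Of its 16 genes, 11 were called higher and the others were not called. Drd1, on that list, had a median of 30.8 CPM in combination mice and 42.3 CPM in model controls. The hippocampus score was at 3.32 to 3.56 in combination mice, against 2.06 to 3.21 in model controls, with 4 of its 12 genes called higher and the others not called. These scores each had an exact permutation p of 0.00794, the smallest possible (two-sided, adjusted 0.0572), and no fit with the hippocampus score was made. The scores of thalamus (4.33 ± 0.420 in combination mice and 4.28 ± 0.886 in model controls), choroid plexus, ependyma, meninges, blood cells and pituitary overlapped between these groups. Wild type mouse 3 carried pituitary genes, with up to 6280 CPM summed over 6 such genes, against at most 2.04 CPM in combination mice. Pomc, on the hypothalamus and basal forebrain list, ran up to 89.5 CPM in wild type mice, where its median was 0.469 CPM. Its part in the score of wild type mouse 3, which was 2.66, was not tested.

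**Figure D3:**
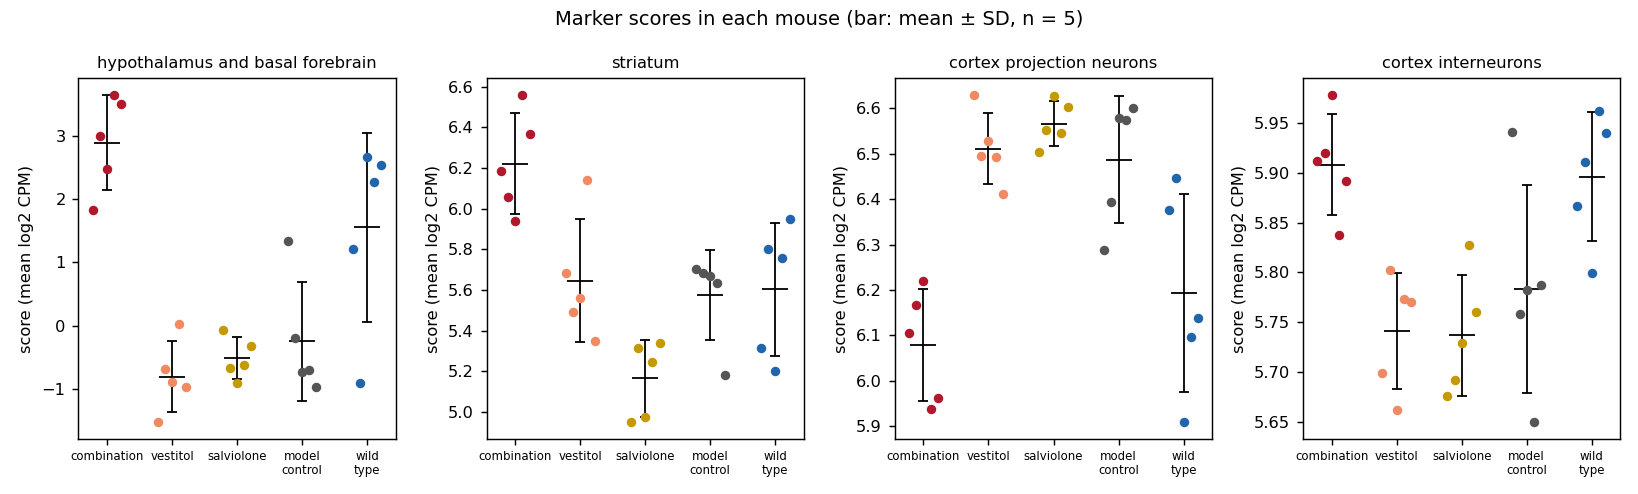
Scores (mean log2 CPM of each marker list, y axes not from 0) in every mouse, with mean ± SD (n = 5). The combination group has the highest mean for hypothalamus and basal forebrain and for striatum, with single mice overlapping those of other groups, and its mice lie below all model controls for cortex projection neurons; wild type mouse 2 lies far below the other wild type mice in the first panel.

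With the hypothalamus and basal forebrain score in the fit, the difference between combination and model control was smaller for all 6 genes. It came to 0.75 ± 0.17 for Susd2, which is 76.7% of the value without the score. It came to 0.36 ± 0.10 for Vat1 (36.9%), 0.26 ± 0.10 for Cygb (45.2%), 0.33 ± 0.12 for Gpr83 (43.9%), 0.20 ± 0.10 for Cd200 (40.1%) and 0.36 ± 0.17 for Ankrd63 (51.4%). Susd2 thus kept the largest share, and Vat1 the smallest. The same fit left 0 genes called between combination and model control (edgeR, 1139 at an unadjusted p under 0.05, and 13 called by DESeq2), of 2471 without the score. The median size of the change in those 2471 genes was 0.405 without the score and 0.174 with it, and their median SE was 0.101 and 0.141. Because the score does not overlap between these groups, score and treatment cannot be told apart in such a fit.

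With the striatum score alone, the difference was 1.00 ± 0.15 for Susd2, 0.83 ± 0.15 for Vat1, 0.49 ± 0.10 for Cygb, 0.60 ± 0.13 for Gpr83, 0.45 ± 0.10 for Cd200 and 0.39 ± 0.13 for Ankrd63, and 460 genes were called. Ankrd63 was the member with the largest decrease under the striatum score, and Susd2 did not decrease. With 4 scores together (hypothalamus and basal forebrain, striatum, thalamus, choroid plexus) the difference was 0.68 ± 0.18 for Susd2 and 0.26 ± 0.10 for Vat1. It was 0.17 ± 0.10 for Cygb, 0.17 ± 0.12 for Gpr83, 0.11 ± 0.10 for Cd200 and -0.003 ± 0.11 for Ankrd63, which thereby changed sign.

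**Figure D4:**
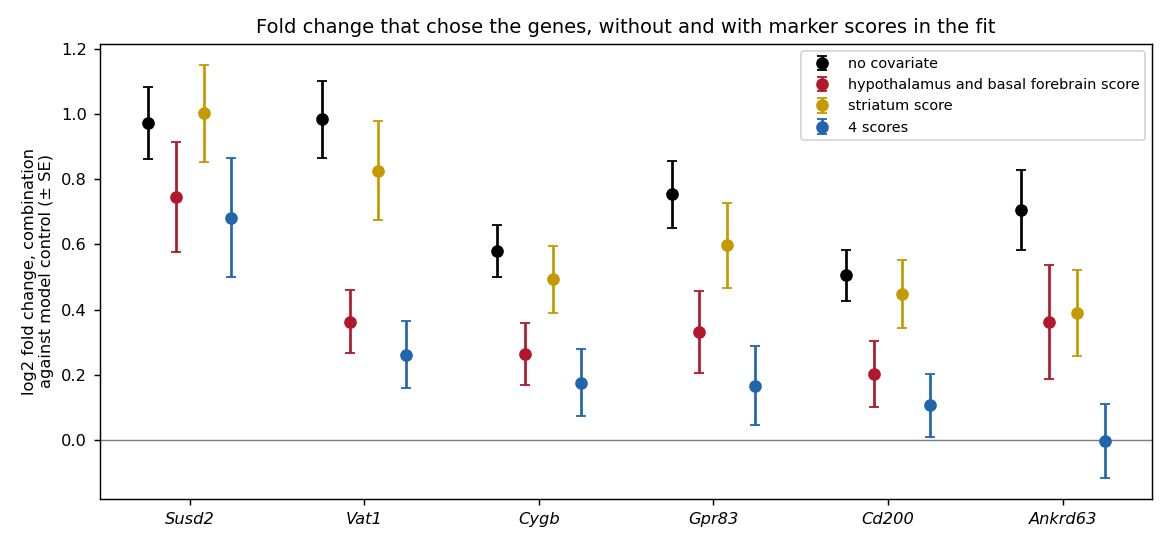
Log2 fold change of combination against model control (y axis, ± SE) for each gene without a covariate and with the hypothalamus and basal forebrain score, the striatum score or 4 scores in the fit. Susd2 stays highest in each fit with a score, and Ankrd63 reaches 0 with 4 scores.

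The tests against wild type moved with the same score. The score averaged -0.80 in vestitol mice and 1.55 in wild type mice (exact permutation test, two-sided, p = 0.0317, 0.109 adjusted over 72 tests of 18 lists), and -0.51 in salviolone mice against the same wild type mean (exact permutation p = 0.0476, adjusted 0.143). With the score in the fit, 0 of the 6 genes were called lower in vestitol than in wild type mice (edgeR, 3 at an unadjusted p under 0.05, and 2 called by DESeq2), and 1, Ankrd63, in salviolone mice. The difference for Gpr83 in vestitol mice came to -0.03 ± 0.11 (edgeR, adjusted p = 0.947), and that for Susd2 to -0.54 ± 0.15 (edgeR, adjusted p = 0.108). With 4 scores, 1 gene was called lower with vestitol, Cd200, and 0 with salviolone (edgeR, 4 at an unadjusted p under 0.05, and 0 by DESeq2). The share of all genes called lower in these fits was not counted, so the lost calls cannot be read as particular to the 6 genes. The difference of Ankrd63 between vestitol and salviolone stood beside striatum scores of 5.35 to 6.14 in vestitol mice and 4.95 to 5.34 in salviolone mice, which did not overlap (exact permutation p = 0.00794, the smallest possible, adjusted 0.0572). With the striatum score in the fit it was 0.27 ± 0.12 (edgeR, adjusted p = 0.469). Without wild type mice 2 and 3, the mouse low in the score and the mouse with pituitary genes, the calls against wild type were kept for the same genes, with Susd2 at -0.83 ± 0.11 in vestitol mice.

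From mouse to mouse within a group, 3 of the 6 genes rose with the hypothalamus and basal forebrain score. This was tested in the 15 vestitol, salviolone and wild type mice, with group in the model, and 1.01% of the 16081 genes in that fit had a called positive slope. Vat1 rose by 0.19 ± 0.03 log2 units per unit of score (edgeR, adjusted p = 0.00524). Gpr83 rose by 0.16 ± 0.04 (edgeR, adjusted p = 0.0367) and Cygb by 0.11 ± 0.03 (edgeR, adjusted p = 0.0323). The slopes of Susd2 (0.08 ± 0.06), Cd200 (0.10 ± 0.04) and Ankrd63 (0.11 ± 0.05) did not pass, at adjusted p of 0.688, 0.197 and 0.347 (edgeR).

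The calls of those slopes rest on wild type mouse 2. Without it the slopes of Vat1 and Cygb changed little, but their SE grew. That mouse had the lowest wild type level of all 6 genes, at 44.39 CPM for Vat1 and 38.94 CPM for Gpr83. Without it, 0 of 6 slopes passed in edgeR (2 at an unadjusted p under 0.05) and 0 in DESeq2. Vat1 was at 0.16 ± 0.06 (edgeR, adjusted p = 0.561), Cygb at 0.11 ± 0.05 and Gpr83 at 0.10 ± 0.07, while Susd2 (-0.10 ± 0.11) and Cd200 (-0.02 ± 0.06) turned negative. Without vestitol mouse 4 or wild type mouse 4, Vat1 alone passed. Against the striatum score, 0 of the 6 slopes passed, with 0.112% of all genes called (edgeR, Ankrd63 at 0.36 ± 0.17, unadjusted p = 0.0542, Susd2 at -0.18 ± 0.21). At an unadjusted p under 0.05 there were 0 of 6, and DESeq2 also called 0.

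**Figure D5:**
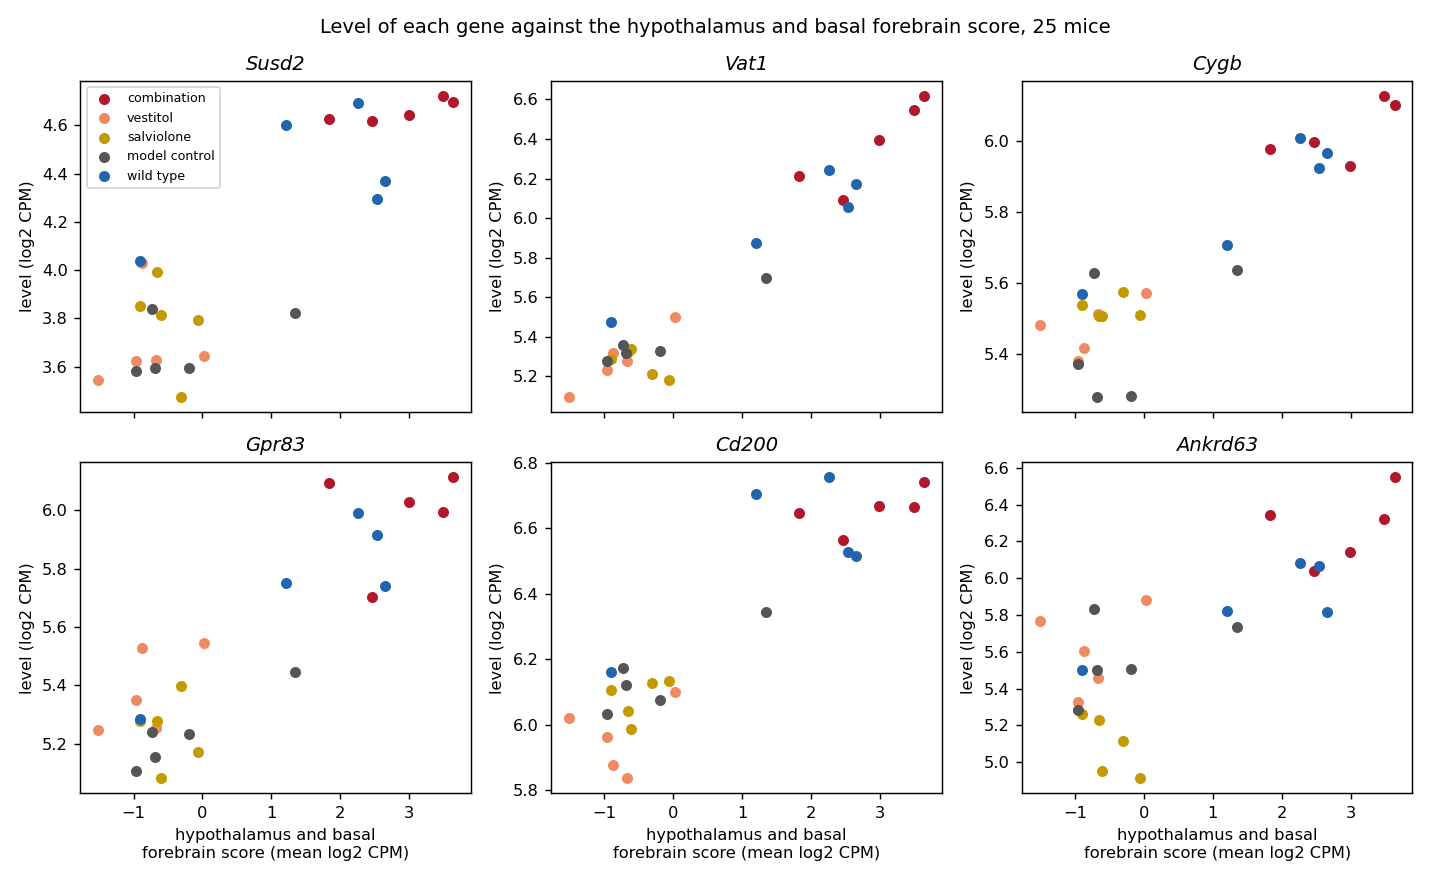
Level of each gene (log2 CPM, y axis) against the hypothalamus and basal forebrain score (x axis, mean log2 CPM) in all 25 mice, coloured by group. In the Vat1 panel the groups lie along 1 band, with model control mouse 1 (score 1.35) between the other controls and the combination mice, whereas in the Susd2 panel that mouse stays at the level of the controls.

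Model control mouse 1 is described further, as 1 mouse among those that chose the genes. Its score of 1.35 was above the other controls, at -0.96 to -0.20. It had the highest level among controls of Vat1, Gpr83 and Cd200, and in Cygb its 49.76 CPM were next to the 49.46 CPM of control mouse 3. In Susd2 its 14.14 CPM were below the 14.27 CPM of control mouse 3, and in Ankrd63 its 53.16 CPM were below the 56.99 CPM of the same mouse.

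The 6 genes resembled each other in their pattern over the mice, which the choice of genes favours. Pearson's r of log2 CPM over 25 mice ranged from 0.758 (Susd2 and Ankrd63) to 0.935 (Vat1 and Cygb). After group means were taken off, r ran from 0.380 (Susd2 and Cygb) to 0.777 (Vat1 and Gpr83). Mice of a group share strain and treatment, genes of a library share its depth, and these values carry no test. Of all named genes with a mean of at least 1 log2 CPM, those most like Susd2 were Rab26 (r = 0.941), Igsf3 (0.930) and Sdc3 (0.927). Vat1 was most like Tmem130 (0.977), Gaa (0.975) and Zcchc12 (0.971), the last of which is on the hypothalamus and basal forebrain list. Cygb was most like Prmt2 (0.953), Sst (0.938), which encodes somatostatin and is on the cortex interneuron list, and Igsf3 (0.936). Gpr83 was most like Cacna1h (0.951), a calcium channel gene, Gaa (0.947) and Lmo3 (0.943). Cd200 was most like Nrp2, Timp2 and Pnma8b, each at 0.970. Ankrd63 was most like Bcr (0.963), Penk (0.951), which encodes proenkephalin and is on the striatum list, and Asic4 (0.949).

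The list set beside Cd200 gave no edgeR calls in the combination. It held CD200 receptors and their adaptors, and also genes outside that pathway, such as Cx3cl1, Cx3cr1, Cd47 and Sirpa. Of these 14 genes, 12 were tested, and 0 were called between combination and model control (edgeR). At an unadjusted p under 0.05 there was 1 (edgeR), and DESeq2 called 1. Their median was -0.08, against 0.004 for all genes. Cx3cl1, the neuronal ligand of another microglial receptor, was at 813 ± 22.3 CPM in combination mice and 932 ± 120 CPM in model controls. Its difference of -0.20 ± 0.07 lay at the threshold (edgeR, adjusted p = 0.05) and was not called. Dok2, an adaptor below CD200R1, was at 0.935 ± 0.268 CPM in combination mice and 0.488 ± 0.177 CPM in model controls (0.94 ± 0.50). In vestitol mice, where Cd200 was lower than in wild type, Cd200r4 (2.59 ± 0.70) and the phosphatase gene Inpp5d (0.30 ± 0.10) were higher (edgeR, adjusted p = 0.0128 and 0.0408). Cd200r4 is a low gene, at 0.690 CPM with vestitol and 0.113 CPM in wild type mice. The microglia score was 4.59 to 5.03 in vestitol mice, against 3.43 to 3.64 in wild type mice, and its part in those 2 genes was not tested. In salviolone mice Cx3cl1 was higher (0.22 ± 0.07) and Rasa1 lower (-0.28 ± 0.10) than in wild type.

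For GPR83, 1 gene of its list was called higher and 1 lower in the combination, and 4 were not called. Beside these, 7.83% of all genes were called higher and 7.13% lower. Of 6 tested genes around the receptor's peptide, Pcsk1n, which encodes proSAAS, rose in combination mice (206 ± 8.20 CPM against 170 ± 17.4 CPM in model controls, 0.28 ± 0.08, edgeR, adjusted p = 0.0218). Pcsk1, which encodes a prohormone convertase, fell (29.8 ± 1.01 CPM against 40.8 ± 6.58 CPM in model controls, -0.45 ± 0.11, edgeR, adjusted p = 0.00659). Neither passed in vestitol or salviolone mice against wild type, where Scg5, a chaperone of the other convertase, was higher with salviolone (0.34 ± 0.10, edgeR, adjusted p = 0.0157).

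Among 13 globin and nitric oxide genes, 3 rose in the combination (beside 7.83% of all genes) and the other ten were not called. Ngb, the neuronal relative of Cygb, was at 14.2 ± 2.80 CPM in combination mice and 3.64 ± 2.87 CPM in model controls (1.96 ± 0.46, edgeR, adjusted p = 0.00578). Nos1, the neuronal nitric oxide synthase, was at 162 ± 5.52 CPM in combination mice and 67.3 ± 42.4 CPM in model controls (1.27 ± 0.40), and Gucy1a1, a subunit of its target guanylate cyclase, also rose (0.24 ± 0.07). Against wild type the same list had 4 lower genes in vestitol mice, with the others not called, and 4 lower genes and 1 higher in salviolone mice, where 8.49% and 9.45% of all genes were lower. The 4 lower genes were Ngb, Nos1, Gucy1a1 and Cyb5r3 with both compounds. Ngb was at 2.13 CPM with vestitol and 2.06 CPM with salviolone, against 11.7 ± 6.23 CPM in wild type mice. Nos1 is also on the cortex interneuron list, whose score was 5.84 to 5.98 in combination mice and 5.65 to 5.94 in model controls.

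Among 7 tested relatives of Vat1, beside 7.83% of all genes called higher in the combination, the gene called was Vat1l. It was at 137 ± 21.5 CPM in combination mice and 62.0 ± 16.1 CPM in model controls (1.14 ± 0.22, edgeR, adjusted p = 0.00136). In vestitol mice it was at 44.2 ± 12.9 CPM and in salviolone mice at 44.9 ± 5.27 CPM, against 88.5 ± 25.2 CPM in wild type mice (edgeR, adjusted p = 0.00315 and 0.00329).

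Of 13 sushi domain genes beside Susd2, 1 rose in combination mice, beside 7.83% of all genes. This was the seizure-related gene Sez6, at 345 ± 35.7 CPM against 245 ± 15.3 CPM in model controls. It differed by 0.49 ± 0.09 (edgeR, adjusted p = 0.000538). Sez6 was lower in salviolone than in wild type mice (-0.36 ± 0.09), with Csmd3 (-0.57 ± 0.13), and Sez6l2 and Susd6 were higher. In vestitol mice Susd5 (-0.44 ± 0.12) and Csmd3 (-0.42 ± 0.13) were lower than in wild type, and the others were not called. Of 10 ankyrin repeat genes beside Ankrd63, Ankrd55 and Ankrd6 rose in combination mice (0.50 ± 0.13 and 0.42 ± 0.11). Ankrd33b and Ankrd45 fell (-0.79 ± 0.13 and -0.23 ± 0.07). Among all genes, 7.83% were called higher and 7.13% lower. Against wild type, 8.49% of all genes were lower and 6.95% higher in vestitol mice, and 9.45% and 8.32% in salviolone mice. Of the ankyrin genes, 3 were lower and 2 higher in vestitol mice, and 2 were lower and 2 higher in salviolone mice. Among them Ankrd6 (-0.55 ± 0.11 with vestitol and -0.62 ± 0.11 with salviolone) and Ankrd55 (-0.49 ± 0.13 with vestitol and -0.38 ± 0.13 with salviolone) were lower. Ankrd45 (0.29 ± 0.07 with vestitol and 0.28 ± 0.07 with salviolone) and Ankrd33b (0.47 ± 0.13 with vestitol and 0.41 ± 0.13 with salviolone) were higher. Between vestitol and salviolone, edgeR called 0 of the 61 tested genes of these 6 lists, beside 0.684% of all genes. There were 3 at an unadjusted p under 0.05 (edgeR), and DESeq2 called 1. Medians of the 6 lists in combination against model control lay between -0.19 (GPR83 list) and 0.05 (ankyrin list), beside 0.004 for all genes. The part of the marker scores in the changes of these lists was not tested.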

How the data were processed

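Cortex RNA of 25 mice was sequenced. Per the labels' protocols, libraries came from total RNA, with TruSeq V2 and SMARTER kits named. Trim Galore, STAR and mm39 are listed in the submitters' processing notes, but no version. How reads were assigned to genes, and whether by strand, is not given in the sources used here. Raw counts and FPKM were deposited by the authors as separate tables. Multiples of 4 made up 44.3% of counts from 4 to 39 (25% by chance).

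Genes were kept by filterByExpr (minimum count 10), and TMM factors were 0.98 to 1.04. All 25 libraries entered 1 fit by group in edgeR 4.0.16 (R 4.3.3), tested by the robust quasi-likelihood test at an adjusted p under 0.05, with adjustment over all 16515 genes. Slopes were fitted in 15 mice (16081 genes). Alternatives used DESeq2 1.42.0 and limma 3.58.1. A score is a list's mean log2 CPM (prior count 2). The fits were tested on simulated data. No 2 libraries of a group agreed within sampling noise. Labels do not name litters or batches. The members, lists and tests were chosen with earlier results of these data known. Named genes are the 6 members, the 3 genes most correlated with each, the next 4 raised genes, and up to 4 called genes (else the 2 of smallest p) per related list; Ache, Bex1, Maged1, Slc32a1 and the markers given were named after their values were seen.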

Additional observations from a re-analysis of the deposited data

Results flagged for a closer look

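Susd2 in vestitol mouse 3 stood apart from its group, at 16.31 CPM against 11.66 to 12.46 CPM in the other 4 vestitol mice. Its gap to the nearest mouse was 0.827 of the group's range, above Dixon's critical value of 0.71 for 5 samples. Vat1 in model control mouse 1 stood apart in the same way, at 51.82 CPM against 38.8 to 40.92 CPM in the other 4 controls (0.837 of the range), and that mouse also had the highest hypothalamus and basal forebrain score of the controls. Over 30 groups checked, chance would flag about 1 in 20.

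The effect of vestitol and that of salviolone, each against the model control, differed for Ankrd63 by 0.52 on the log2 scale. That difference is the vestitol against salviolone comparison, which passed at the threshold (edgeR, adjusted p = 0.0479). Striatum scores did not overlap between the vestitol and salviolone mice, and with that score in the fit the difference was 0.27 ± 0.12.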

How the results depend on the processing

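Called differences from wild type, and that of Ankrd63 between the compounds, kept their direction in every alternative run. The number called lower in vestitol than in wild type mice (5) came to 0 with the hypothalamus and basal forebrain score in the fit and 1 with 4 scores; in salviolone mice (6) it came to 1 and 0. For these, score and group vary together, and the share of all genes called with the scores was not counted. Between the compounds the 1 call, Ankrd63, came to 0 with no filter, with limma-voom, on log2 FPKM (pseudocount 0.1 or 1, and 0.1 unfiltered), with only the groups compared, with only the 15 mice outside the choice, with 4 scores or, added after seeing the data, the striatum score, with the replicate number as a block, and without mitochondrial genes, and ranged from 0 to 1 when each mouse was left out; the cause was not tested. The 3 called slopes came to 1 with limma-voom, 0 with the replicate block, 0 on the striatum score, 0 without wild type mice 2 and 3 (added after seeing the data) and 0 to 3 when each mouse was left out, where fewer mice enter. Values that had not passed turned in sign for Ankrd63 in vestitol against wild type mice with the hypothalamus and basal forebrain score (0.01718), for Vat1 between the compounds with 4 scores (-0.03507) and the striatum score (-0.09414), and for the slope of Susd2 on the striatum score (-0.177) and without wild type mice 2 and 3 (-0.08272). Leaving out each mouse gave -0.03335 to 0.06882 for Vat1 between the compounds (below 0 without vestitol mouse 4), and slopes of -0.01708 to 0.1199 for Cd200 and -0.1038 to 0.1023 for Susd2 (each below 0 without wild type mouse 2). With 4 scores Ankrd63 in combination against model control turned to -0.00338. Gpr83 in vestitol mice lost its call with only the compared groups (edgeR, adjusted p = 0.0685), and Cygb in salviolone mice with the striatum score (edgeR, adjusted p = 0.0585).

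Same-numbered mice did not deviate together (r of -0.0802 to 0.0872 over the 4 comparisons), which cannot show that the replicate number stands for no batch. The replicate block left the counts against wild type within 1.5 times. With it, the called slopes and the call of Ankrd63 between the compounds were lost. Depth did not limit the 6 genes, each at 11 CPM or more in libraries of at least 59376320 counts. Counts show the spread between 5 mice per group.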
